A study of Homo sapiens with 16 samples.

Results

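AsiDNA given without belinostat was compared with vehicle in the established human glioblastoma line U87, through the regions of open chromatin listed for each treatment. A region listed after AsiDNA counted as gained when no region of the vehicle list overlapped it by at least 1 bp, and a vehicle region counted as lost when no AsiDNA region overlapped it. On chromosomes 1 to 22 and X, 24339 of 138273 AsiDNA peaks (17.6%) were gained and 15815 of 130318 vehicle peaks (12.1%) were lost. The 8 libraries behind these lists, 4 treated with AsiDNA and the vehicle DMSO and 4 with DMSO alone, belong to a series of 16. The other 8 received belinostat, a histone deacetylase inhibitor, at 1 µM for 24 h, with or without AsiDNA, and their lists are used here only to see AsiDNA present and absent in another setting. The labels give no dose or time for AsiDNA, and the protocols speak of MTU87 and LTAU87 cells where the sample fields say U87, so it is not settled how the AsiDNA cells were exposed, nor whether they are a subline kept apart from the vehicle cells. For every gained or lost peak, treatment and a difference between such sublines cannot be told apart.

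AsiDNA is a short double-stranded DNA that imitates a broken chromosome end. It draws the sensors of double-strand breaks, DNA-dependent protein kinase and poly(ADP-ribose) polymerase, away from real breaks, so that signalling spreads through the cell while repair at true sites is impaired. NicE-seq finds open chromatin by letting the enzyme Nt.CviPII nick accessible DNA in fixed nuclei and a polymerase fill biotinylated nucleotides in from the nick. The captured DNA piles up into peaks, and the fold enrichment of a peak is the height of that pile over its local background. Promoters in use, enhancers and insulators are all nicked, so a peak by itself does not name the kind of element.

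Promoter sequences at the strongest unshared peaks at gene starts serve as examples. Unshared refers to the AsiDNA and vehicle lists only, and such a peak can be present in the belinostat-treated lists. The 250 bases before the annotated start are given for the 3 strongest gained and 3 strongest lost peaks at a gene start whose peak reached the RefSeq window of that start (GRCh38.p14), 5′ to 3′ on the strand of the gene. Capitals mark matches on either strand to 5 motifs, and overlapping matches run together. The GC box bound by SP and KLF factors was searched as GGGCGG. The box bound by NF-Y was searched as CCAAT. The AP-1 motif was searched as TGANTCA. The E-box was searched as CACGTG, and the TATA box as TATAAA.
SNAP47 (gained; chr1:227728381-227728630, plus strand): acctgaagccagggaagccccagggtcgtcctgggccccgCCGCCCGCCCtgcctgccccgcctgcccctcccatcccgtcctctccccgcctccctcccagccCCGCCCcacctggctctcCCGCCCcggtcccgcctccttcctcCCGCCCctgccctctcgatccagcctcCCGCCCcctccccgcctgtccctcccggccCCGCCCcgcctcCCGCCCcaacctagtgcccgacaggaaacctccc
SMIM34 (gained; chr21:34423952-34424201, minus strand): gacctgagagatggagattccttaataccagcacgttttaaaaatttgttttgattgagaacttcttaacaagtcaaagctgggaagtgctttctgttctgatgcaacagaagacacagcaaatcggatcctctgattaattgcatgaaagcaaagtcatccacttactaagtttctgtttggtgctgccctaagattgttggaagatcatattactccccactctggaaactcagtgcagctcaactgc
F8A2 (gained; chrX:155381845-155382094, plus strand): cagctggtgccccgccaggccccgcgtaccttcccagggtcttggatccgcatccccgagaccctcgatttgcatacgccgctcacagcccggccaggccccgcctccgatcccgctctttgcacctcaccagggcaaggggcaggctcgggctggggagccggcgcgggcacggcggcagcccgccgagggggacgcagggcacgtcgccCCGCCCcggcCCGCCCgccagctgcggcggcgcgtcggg
CFAP107 (lost; chr1:12745950-12746199, plus strand): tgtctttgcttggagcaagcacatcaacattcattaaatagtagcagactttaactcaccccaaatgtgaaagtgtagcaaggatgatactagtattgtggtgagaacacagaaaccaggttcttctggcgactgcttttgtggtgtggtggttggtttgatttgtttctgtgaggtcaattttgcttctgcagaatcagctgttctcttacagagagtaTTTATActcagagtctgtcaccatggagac
NAP1L2 (lost; chrX:73214852-73215101, minus strand): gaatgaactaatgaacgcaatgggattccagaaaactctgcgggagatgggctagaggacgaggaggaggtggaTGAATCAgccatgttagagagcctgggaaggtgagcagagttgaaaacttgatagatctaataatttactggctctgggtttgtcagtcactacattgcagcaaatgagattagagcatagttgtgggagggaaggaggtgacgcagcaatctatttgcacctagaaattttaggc
PCDH15 (lost; chr10:54801232-54801481, minus strand): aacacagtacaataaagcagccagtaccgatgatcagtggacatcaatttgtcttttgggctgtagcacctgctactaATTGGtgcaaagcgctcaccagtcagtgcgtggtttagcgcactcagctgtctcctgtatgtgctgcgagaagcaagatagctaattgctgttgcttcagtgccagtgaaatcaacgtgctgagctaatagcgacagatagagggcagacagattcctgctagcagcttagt

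The gained examples included CpG-rich sequence and the lost examples did not. SNAP47 held 8 GC boxes and 20 CpG in 78.0% G and C, and F8A2 held 2 GC boxes and 32 CpG in 77.2% G and C. SMIM34, also gained, resembled the lost sequences, with 40.8% G and C, 2 CpG and no match to any of the motifs. Among the lost, CFAP107 (41.6% G and C) held a TATA box, NAP1L2 (45.6%) an AP-1 match and PCDH15 (48.0%) a CCAAT box.

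Over all starts the difference was smaller than these examples make it look. Windows of 300 bp, from 250 bases before to 50 after the start, were sorted by the peaks they held: 174 held a gained peak and none shared or lost, 87 a lost peak and none shared or gained, 9364 a shared peak and 6037 no peak, of 15811 starts. The median G and C content was 62.3% at gained starts, 56.3% at lost starts, 65.7% at shared starts and 56.0% at starts without a peak. GC boxes stood in 59.2% of gained starts (Wilson 95% interval 51.8 to 66.2), 43.7% of lost starts (33.7 to 54.1), 73.2% of shared starts and 58.5% of all starts. Starts that were open in both lists were therefore richer in GC boxes than starts open in either list alone, and the gained and lost intervals overlapped each other.

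AP-1 and TATA box matches were more frequent at gained and at lost starts than at shared ones. TGANTCA stood in 9.20% of gained starts (5.74 to 14.4) and 11.5% of lost starts (6.36 to 19.9), against 4.76% of shared starts and 5.76% of all. TATAAA stood in 10.3% of gained (6.64 to 15.8), 13.8% of lost (8.07 to 22.6) and 5.29% of shared starts, with 9.64% of all. CCAAT was present in 31.0% of gained (24.6 to 38.3), 40.2% of lost (30.6 to 50.7) and 38.2% of shared starts, with 36.3% of all, so both intervals included the shared value. CACGTG stood in 4.02% of gained (1.96 to 8.07), 6.90% of lost (3.20 to 14.2) and 10.7% of shared starts, with 8.87% of all, and only the gained interval lay below the shared value. Sites nicked by Nt.CviPII (CC followed by any base but C, on either strand) numbered a median of 43 per gained start, 38 per lost start, 45 per shared start and 37 per start without a peak. The quartiles were 31 and 51 at gained starts and 31.5 and 49 at lost starts, so these classes overlapped widely. The part of nick sites in the gained and lost calls was not tested.

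The authors deposited 1 peak list for each group of 4 libraries. No value below therefore has an error between libraries, no p-value was computed, and the Wilson 95% intervals speak for counting error alone. The number of reads behind each list is unknown, and the fold enrichments are not scaled between lists, so folds of several lists are given side by side without being compared as levels. The AsiDNA list was the longer by count and by area, covering 67.6 Mb against 62.4 Mb for vehicle, with a median peak width of 410 bp against 398 bp. Its peaks also had the higher median −log10 q, the peak caller's score for evidence against background (17.0 against 15.8). Of 8 glial or mesenchymal glioma markers with a known start, 6 had a peak at the start in both lists, against 3 of 4 neuron, 1 of 5 immune, 0 of 1 endothelial and 0 of 3 oligodendrocyte markers.

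The AsiDNA list had more gained peaks than the vehicle list had lost ones. The gained share was 17.6% of AsiDNA peaks (17.4 to 17.8) and the lost share 12.1% of vehicle peaks (12.0 to 12.3), a ratio of 1.54 gained peaks per lost peak. When the AsiDNA list was shortened to its 130318 strongest peaks, the length of the vehicle list, 18700 peaks were gained and 18020 lost. Equal lengths bring the ratio, here 1.04, near 1 by construction. With −log10 q of at least 5 in both lists the ratio was 1.86. Requiring −log10 q of at least 5 for the unshared peaks only, so that a weak peak could still block a call, left 13668 gained and 6908 lost, a ratio of 1.98. Whether the surplus of gained peaks came from more reads or from more open sites cannot be told apart.

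Gained and lost peaks were weak and narrow. The median gained peak had a fold enrichment of 3.74 and was 248 bp wide, against 6.65 and 454 bp for AsiDNA peaks shared with vehicle. The median lost peak had a fold of 3.55 and a width of 239 bp, against 6.23 and 429 bp for vehicle peaks shared with AsiDNA. Few were near misses of a peak that had moved slightly. Only 2079 gained peaks (8.54%) and 1533 lost peaks (9.69%) lay within 500 bp of a peak of the other list, and the median distances were 5.22 and 5.04 kb. The sharing itself was clear-cut, since 99.3% of shared AsiDNA peaks overlapped a vehicle peak by at least 50% of the shorter of the pair and only 56 of 113934 by under 10%.

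The chance of being unshared fell steeply with strength. Each peak was given the percentile of its fold enrichment within its own list. In the weakest 10% of each list 57.1% of AsiDNA peaks were gained (56.3 to 58.0) and 46.3% of vehicle peaks were lost (45.4 to 47.2). Between percentiles 40 and 50 the shares were 11.7% and 5.71%. Above percentile 50 there were 1173 gained peaks, 4.82% of all gained, and 413 lost peaks, 2.61% of all lost. In the strongest 10% 1 of 13826 AsiDNA peaks was gained and 0 of 13043 vehicle peaks was lost, for which the upper bound of the interval is 0.0294%. The gained share stood above the lost share in each of 10 classes of strength.

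**Figure D1:**
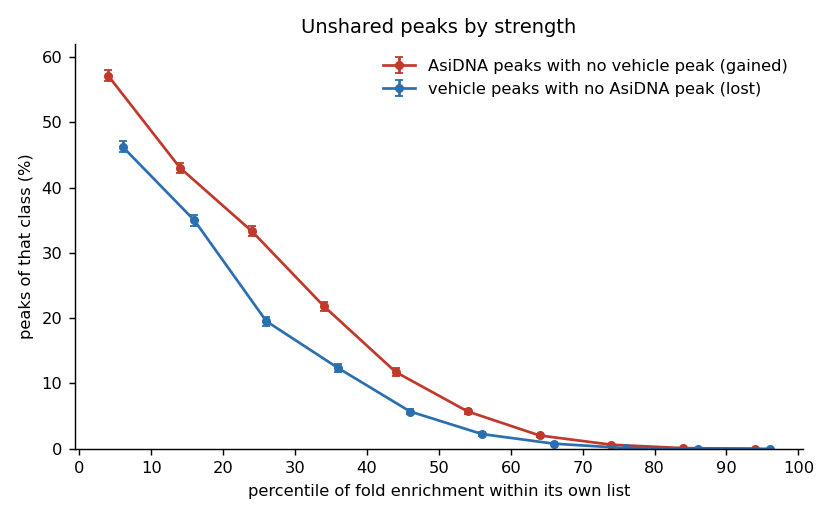
Share of AsiDNA peaks gained and of vehicle peaks lost (vertical axis, % of the peaks in that class) by percentile of fold enrichment within each list (horizontal axis); bars are Wilson 95% intervals. Both curves fall from 57.1% and 46.3% in the weakest 10% to 1 and 0 peaks in the strongest.

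The peak that ranked highest among the gained ones stood in the body of ST6GALNAC5, which encodes a sialyltransferase of brain gangliosides. It was 198 bp wide at chr1:76971215-76971412 (hg38), with a fold of 15.6 at percentile 97.9 of the AsiDNA list, and the nearest vehicle peak was 9631 bp away. The belinostat list had it at a fold of 28.8 and the combination list at 26.4. It was therefore missing from the vehicle list alone, and it is the only gained peak among the strongest 10%.

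The other strong gained peaks ranked lower, and 8 of the 10 strongest were found in both belinostat-treated lists. A 209 bp peak at chr17:26041087-26041295, 1253 kb from WSB1, the nearest protein-coding gene, had a fold of 11.4 and was in neither belinostat-treated list. A 692 bp peak in STIM2 (chr4:26992585-26993276), a calcium sensor of the endoplasmic reticulum, had a fold of 10.3 with AsiDNA, 4.87 with belinostat and 8.54 with the combination. A 708 bp peak lay 68.0 kb from CXCR4 (chr2:136186037-136186744), the receptor for the chemokine CXCL12. It had a fold of 9.98 with AsiDNA, 9.50 with belinostat and 5.77 with the combination, and the nearest vehicle peak was 33400 bp away. STIM2 and CXCR4 thus gave the widest of the 10 strongest gained peaks. The others lay near BICC1, in PDCD10, 47.9 kb from TENT4A, 357 kb from XYLT1, in TMEM131 and in COG7, with folds of 9.58 to 10.3. Of these 10, the chromosome 17 peak and the TMEM131 peak were in neither belinostat-treated list, and the XYLT1 peak lay 413 bp from a vehicle peak.

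The strongest lost peak was a 290 bp peak in DHRS4L2 (chr14:23977225-23977514), a short-chain dehydrogenase gene in a cluster of near-identical copies, with a fold of 9.69 at percentile 84.7 of the vehicle list. No lost peak thus reached percentile 90. The DHRS4L2 peak was absent with belinostat and had a fold of 4.85 with the combination. A peak in TENM2, a teneurin adhesion receptor of neurons, followed with a fold of 9.12, and a peak on chromosome 4 that lay 774 kb from AADAT with 8.99. The lost peak in MAP4K3, a kinase of amino-acid signalling to mTOR, had a fold of 8.04 with vehicle, 10.4 with belinostat and 8.77 with the combination, but lay only 239 bp from an AsiDNA peak. The remaining 6, with folds of 8.02 to 8.51, lay near RANBP6, COL11A1 and ZNF195 and in PHTF2, CDH19 and PTPRG, and only the RANBP6 peak was in neither belinostat-treated list.

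Few gene starts had an unshared peak. Of 15811 known starts, 565 (3.57%) had a gained peak within 1000 bp and 359 (2.27%) a lost peak. Starts with a peak only in the AsiDNA list numbered 290 (1.83%) and starts with a peak only in the vehicle list 160 (1.01%).

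The strongest gained peaks at starts stood at percentiles of 46.4 to 65.9 of the AsiDNA list. TRIB3, a pseudokinase induced by the integrated stress response, had a 489 bp peak 580 bp from its start. Its fold was 6.54 with AsiDNA, 10.8 with belinostat and 10.0 with the combination, and a vehicle peak lay 671 bp away. SNAP47, a SNARE-family protein, had a fold of 7.46 with AsiDNA, 5.12 with belinostat and 4.80 with the combination. PSTK, the kinase that prepares selenocysteine transfer RNA, had 6.65 with AsiDNA and 4.27 with belinostat and no combination peak, at 207 bp from a vehicle peak. KLF8, a zinc-finger repressor of the KLF family, had a fold of 5.87 at 77 bp from the start, and MRS2, a mitochondrial magnesium channel, 5.61 in a peak 771 bp wide at 32 bp from the start. F8A2 (6.07) belongs to a family of near-identical copies on the X chromosome, so its reads may be shared among copies. SMIM34 (6.31), TNFAIP8L2 (5.84), GLMP (5.61) and LOC107983987 (5.61) made up the 10.

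The strongest lost peaks at starts reached percentile 54.4 of the vehicle list. PCDH15, a protocadherin of hair cells, lost a 346 bp peak 35 bp from its start, with a fold of 5.20 in vehicle, 5.33 with belinostat and no peak with the combination. VIP, which encodes vasoactive intestinal peptide, lost a 196 bp peak with a fold of 4.97 in vehicle, 4.87 with belinostat and none with the combination. NAP1L2, a neuronal nucleosome assembly protein, had a fold of 5.68 in vehicle, 3.71 with belinostat and no peak with the combination. DYSF, the membrane repair protein dysferlin of muscle (4.87 in vehicle), and CD244 (4.73) went the other way, with no belinostat peak and combination folds of 5.43 and 4.85. The remaining 5 of the 10 were in both belinostat-treated lists. CFAP107, a ciliary microtubule protein, had the highest fold (6.13), with 8.11 in the belinostat and 6.46 in the combination list. The peaks of GLRA1, a glycine receptor subunit (4.97), of TYMP, thymidine phosphorylase (5.05), and of NAP1L2 each lay within 500 bp of an AsiDNA peak. TPRX2 (5.44) and LDLRAD2 (5.04) completed the 10.

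Gained and lost peaks alike stood away from gene starts. Counted here were known starts and, for genes without a known start, both ends of the gene. Within 1000 bp of such a position lay 2.88% of gained peaks (2.67 to 3.09) and 2.83% of lost peaks (2.58 to 3.10). Of the shared peaks of the same lists 10.5% and 10.6% did. Gene bodies held 45.0% of gained peaks and 41.6% of lost peaks, whose intervals (44.3 to 45.6 and 40.8 to 42.4) did not overlap. The gained share lay above the 43.8% of AsiDNA peaks shared with vehicle, and the lost share below the 43.7% of vehicle peaks shared with AsiDNA. The space between genes held 52.2% of gained and 55.6% of lost peaks, against 45.7% and 45.6% of shared peaks.

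Chromosomes 20 and 9 had the highest gained shares, 21.4% (20.1 to 22.7) and 20.1% (19.2 to 21.1), and chromosome 22 the lowest, 15.2% (13.8 to 16.8). Lost shares were highest on chromosomes 13 (15.7%) and 20 (15.5%) and lowest on 17 (9.63%) and X (9.66%). The number of gained per lost peak ran from 1.23 on chromosome 13 to 1.95 on X. Unshared peaks were also crowded into a few windows, most of them near centromeres. In 33 windows of 1 Mb with at least 20 unshared peaks, unshared peaks outnumbered shared ones, and these windows held 950 gained and 964 lost peaks, most of them with no protein-coding gene. The densest, 44 to 45 Mb on chromosome 9, had 128 gained, 77 lost and 122 shared peaks. In these windows nearly as many peaks were gained as lost. Without these 33 windows 23389 peaks were gained and 14851 lost.

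Most unshared peaks stood alone between shared neighbours, and 2 long runs were exceptions, chosen after their values were seen. The longest run of gained peaks held 10 over 805 kb of gene-free sequence at chr10:8393625-9198910. The vehicle list had 0 peaks there, the belinostat list 3 and the combination list 1, and the AsiDNA folds were low, from 2.35 to 4.50. The longest run of lost peaks held 9 over 382 kb at chr1:103107764-103490218, from the edge of COL11A1, a fibrillar collagen gene, outwards.

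That second stretch was examined in all 4 lists. The vehicle list had 9 peaks there with folds of 3.31 to 8.41, and the AsiDNA list had 0. The belinostat list had 11, with folds of 3.29 to 13.2, and the combination list 3, with folds of 3.69 to 10.7. Summed over the 500 kb on either side, the vehicle and AsiDNA lists both had 10 peaks, the belinostat list 13 and the combination list 11. The run was chosen for its lost peaks, so the 9 and 0 of vehicle and AsiDNA are fixed by that choice, and only the belinostat and combination counts are not.

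**Figure D2:**
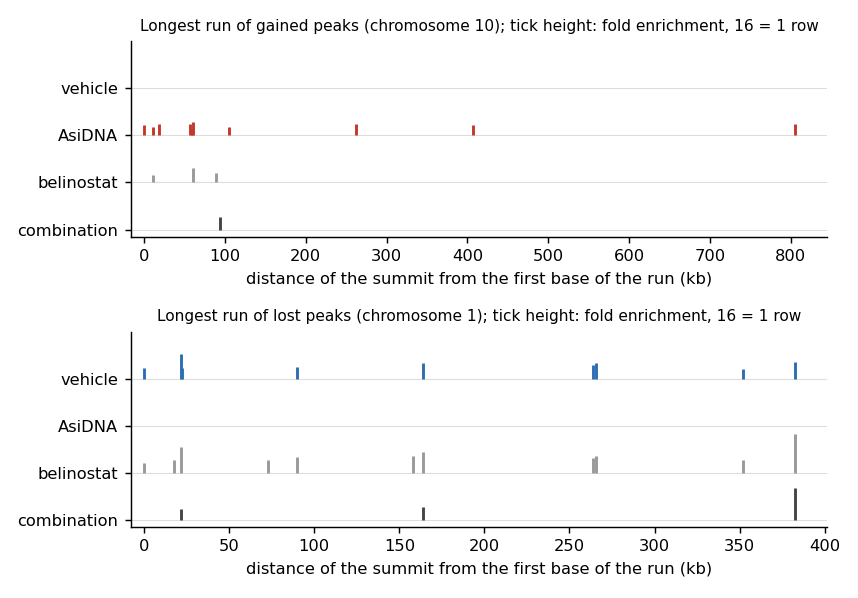
Peaks of the 4 lists (rows) over the longest run of gained and of lost peaks; the horizontal axis is the distance of each summit from the start of the run in kb and tick height is fold enrichment. Over the lost run the AsiDNA row is empty and the combination row holds 3 ticks, against 9 for vehicle and 11 for belinostat.

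Peaks present in both lists were slightly wider after AsiDNA. Pairs in which each peak overlapped exactly 1 peak of the other list numbered 110681. Their median width was 451 bp with AsiDNA and 427 bp with vehicle, the median change was 18 bp or 0.06 on the log2 scale, and 59.7% of pairs (59.5 to 60.0) were wider while 39.7% were narrower. Peaks grew at both ends by similar amounts, a median of 8 bp on the left and 7 bp on the right. A change of at least 2-fold was rare, with 2013 pairs wider and 922 narrower. The AsiDNA list also had more peaks that spanned at least 2 vehicle peaks (1461) than the vehicle list had peaks spanning at least 2 AsiDNA peaks (914).

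The widening was found at every strength, and the opposite was found when belinostat was given too. Over 10 classes of strength between 57.4% and 61.3% of pairs were wider with AsiDNA, and the median width ratio fell from 1.06 between percentiles 30 and 40 to 1.02 in the strongest 10%. For the combination against belinostat, a comparison that shares no list with this one, 44.7% of 115198 pairs (44.4 to 45.0) were wider with AsiDNA, the median change was −8 bp and peaks were narrower in each class. In each comparison the wider peaks belonged to the longer list, 138273 against 130318 peaks for AsiDNA and vehicle and 134865 against 138937 for the combination and belinostat. With the AsiDNA and vehicle lists at equal length, 60.0% of 108591 pairs were wider with AsiDNA. The difference between the comparisons was not tested, nor was the part of depth in the widths.

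**Figure D3:**
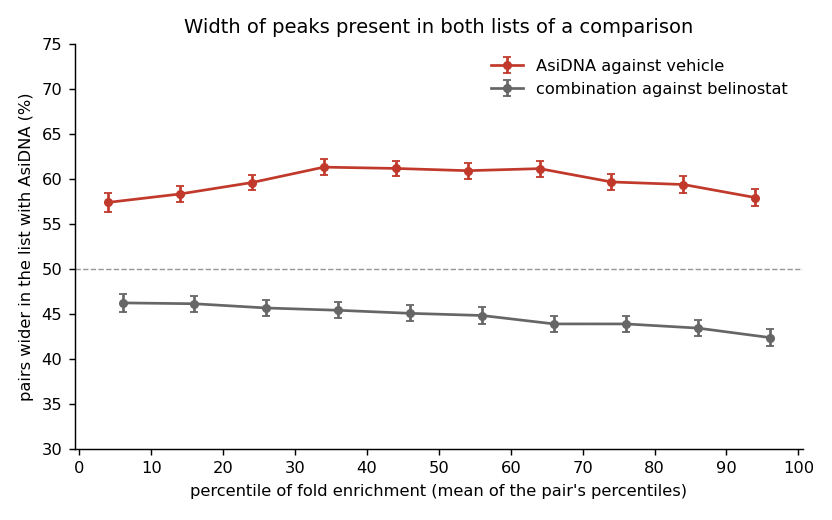
Share of 1-to-1 pairs that were wider in the list with AsiDNA (vertical axis, %) by the mean percentile of the pair (horizontal axis); bars are Wilson 95% intervals and the dashed line is 50%. AsiDNA against vehicle lies above the line in all 10 classes and the combination against belinostat below it in all 10.

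The largest single changes in width lay both near genes and far from them. Among pairs at percentile 50 or more in both lists, a peak 15.6 kb from AOAH, a lipase that inactivates lipopolysaccharide, measured 985 bp with AsiDNA and 268 bp with vehicle. The peak 154 bp from the start of FRS3, an adaptor of fibroblast growth factor receptors, measured 1325 bp and 397 bp. Wider peaks also lay near CCDC54 (1219 and 378 bp), in RBM33 (804 and 257 bp) and on chromosome 15 far from genes (956 and 301 bp). In the opposite direction peaks in LRBA (279 and 802 bp), a protein of vesicle traffic, and in FMN1 (312 and 894 bp), an actin-nucleating formin, were narrower with AsiDNA. The other 3 of the narrowest lay far from genes on chromosomes 1 and 2. The peak on chromosome 15 and that at chr2:92994329-92994558 both lay in the 1 Mb windows crowded with unshared peaks, described above.

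The order of shared peaks by strength was largely kept. Ranked by fold among the pairs, a peak moved by a median of 7.18 percentile points, and 13995 pairs (12.6%) moved by more than 20 points, 7231 up and 6764 down. The middle 90% of changes ran from −21.7 to 22.3 points. For the combination against belinostat the median move was 6.10 points and 9.23% moved by more than 20. With no spread between libraries, movement due to AsiDNA and movement between repeated lists cannot be told apart.

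Named risers and fallers were mostly distal. The largest rise among pairs at percentile 50 or more in both lists was 11.8 kb from PGRMC2, a haem-binding membrane protein, from percentile 51.4 to 92.2 with folds of 6.38 and 12.8. It was followed by peaks near PAPPA2, a protease of insulin-like growth factor binding proteins, near SCML1, in SLC5A4 and 59.4 kb from SLC7A1, the cationic amino acid transporter, all rising by at least 36.6 points. The largest fall was in E2F5, a repressor of cell-cycle genes, from percentile 92.1 to 53.8. Its width fell with it, from 635 to 300 bp. Falls of 35.7 to 37.3 points followed near KLHL1, in DDX60L, a relative of the antiviral helicase DDX60, near PRELID2 and in SUGT1. In SUGT1, a co-chaperone of HSP90, the fold was 14.0 with vehicle, 7.71 with AsiDNA, 18.7 with belinostat and 15.2 with the combination.

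Counted by gene, with each gene extended by 10 kb on either side, 8873 of 19970 protein-coding genes (44.4%) held at least 1 gained peak and 6252 (31.3%) at least 1 lost peak. More gained than lost peaks were found in 6638 genes (33.2%) and more lost than gained in 3142 (15.7%), while 3816 (19.1%) held both. A surplus of at least 3 gained peaks was found in 910 genes (4.56%) and a surplus of at least 3 lost peaks in 160 (0.801%). Longer genes had larger shares of both kinds. The gained share rose from 13.6% of peaks inside genes under 10 kb to 18.8% in genes over 500 kb and the lost share from 9.24% to 12.6%, and there were 1.61 to 1.68 gained peaks per lost peak in every length class.

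Genes with the most gained peaks were long genes, and 7 of the 10 held at least 11 lost peaks, the number at which the 10th place by lost peaks is tied. PRKG1, the cGMP-dependent protein kinase, held 30 gained and 26 lost peaks among 123 AsiDNA and 119 vehicle peaks over 1307 kb. PDE4D, a cAMP phosphodiesterase, held 20 gained and 13 lost, KAZN, a desmosome-associated protein, 15 and 14, and the glypican GPC6 16 and 11. SLIT3, a secreted guidance cue, held 16 gained and 11 lost, CADPS2, a factor of dense-core vesicle release, 18 and 11, and the teneurin TENM3 15 and 9. KALRN, an exchange factor for small GTPases, held 13 gained and 11 lost, and the teneurin TENM2 11 and 13. The median percentile of their gained peaks ran from 9.50 in PRKG1 to 23.6 in TENM3, against 16.9 for all gained peaks.

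CDH13, ROBO1, RARB, IMMP2L and SNTB1 had the largest surpluses of gained peaks. CDH13, a cadherin anchored by lipid, held 24 gained and 11 lost peaks, of 93 and 80 peaks in all. ROBO1, the receptor for SLIT ligands, held 17 and 5, and its gained peaks had a median percentile of 29.0, higher than in any other of the 10 genes with most gained peaks. RARB, a retinoic acid receptor, held 13 and 3. IMMP2L, a subunit of a mitochondrial inner-membrane peptidase in a common fragile site, held 10 and 0, the strongest at percentile 78.4 of the AsiDNA list. SNTB1, a syntrophin of the dystrophin complex, held 11 and 1. Surpluses of 8 or 9 were found in CEP112, DPP6, SMYD3, THSD4 and ARHGEF28. With lists of equal length the surplus fell from 13 to 6 in CDH13, from 12 to 6 in ROBO1 and from 10 to 5 in RARB. In THSD4 it turned from 9 to −2 when only unshared peaks with −log10 q of at least 5 were counted.

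These gained peaks, like gained peaks in general, were found again with belinostat only in part. Of all gained peaks 39.2% overlapped a belinostat peak, 37.9% a combination peak and 51.2% neither. Of the 24 gained in CDH13, 12 overlapped a belinostat peak, 9 a combination peak and 12 neither. Of the 17 in ROBO1, 6 overlapped each of the lists and 9 neither, and of the 13 in THSD4, 10 overlapped neither.

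Genes with a surplus of lost peaks were fewer and their surpluses smaller. CNTNAP5, a neurexin-related adhesion protein, held 9 lost and 0 gained peaks, SETBP1, a binding partner of the oncoprotein SET, 8 and 0, and the steroid-like nuclear receptor gene RORA 13 and 6. PHACTR3, a regulator of phosphatase and actin, held 8 lost and 1 gained, the Hedgehog effector GLI2 8 and 2, and the glypican GPC5 7 and 1. ADAMTS17, a secreted metalloprotease, and AHRR, the repressor of the aryl hydrocarbon receptor, held 5 and 0 each. The 8 lost peaks of SETBP1 had the highest median percentile of this group, 38.2, and 5 of them were in the belinostat list and 6 in the combination list. Of all lost peaks 35.9% and 34.2% were in those lists. The histone methyltransferase gene KMT2C (12 lost, 3 gained) and RANBP2 (14 lost, 9 gained), a nuclear pore protein, both have near-identical sequence elsewhere in the genome, where reads can be misplaced. RANBP2 was counted over an annotated span of 1123 kb. Its lost peaks were spread over 1045 kb, so they need not belong to RANBP2 itself. TTC34 (11 lost, 3 gained) had lost peaks of a median percentile of 4.69, close to the bottom of the list.

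**Figure D4:**
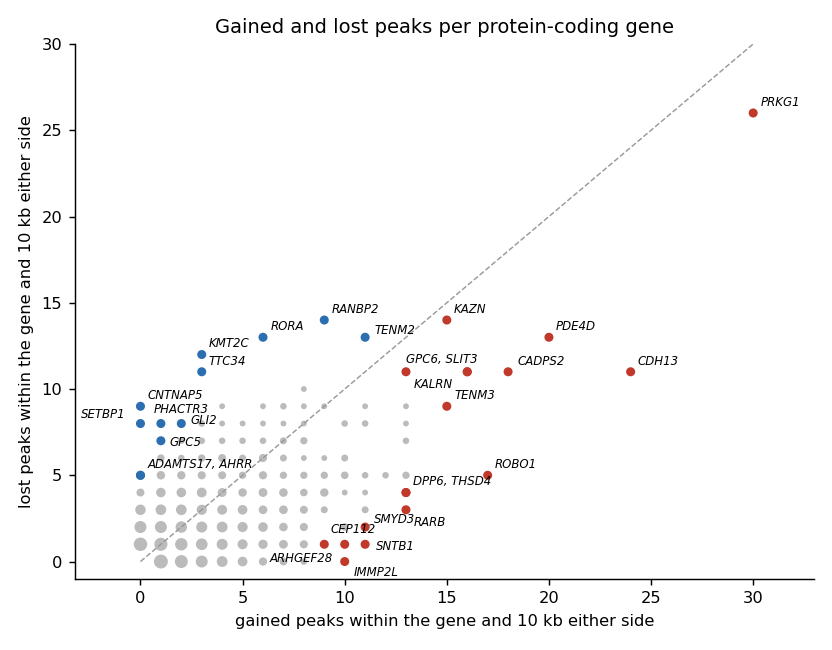
Lost peaks (vertical axis) against gained peaks (horizontal axis) for each protein-coding gene with at least 1 of either, counted over the gene and 10 kb on either side; grey dots grow with the number of genes at a point, red and blue dots are named genes with more gained or more lost peaks, and the dashed line marks equal numbers. PRKG1 lies near the line at 30 and 26, CDH13 and ROBO1 lie well below it, and CNTNAP5 and SETBP1 lie on the left edge with 0 gained.

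As a share of the peaks of the gene, other genes led. Among genes with at least 10 AsiDNA peaks the median gained share was 15.4%, and TRPM1, a cation channel of melanocytes and retina, had 7 of 10 gained. CELF4, a neuronal RNA-binding protein, had 9 of 15, the axonemal dynein DNAH9 and the TFIID subunit TAF3 6 of 10 each, and the receptor phosphatase PTPRT 11 of 20. Among genes with at least 10 vehicle peaks the median lost share was 9.09%, and BCAS4 reached 54.5% with 6 of 11. The cadherin CDH12 and the prostaglandin receptor gene PTGER3 had 5 of 10 lost, and PHACTR3 and MGAM2 8 of 16 and 6 of 12. Of these lost peaks, the belinostat and combination lists held 4 and 1 in CDH12, 3 and 0 in PHACTR3, 2 and 2 in BCAS4, 2 and 2 in PTGER3 and 1 and 1 in MGAM2. Over all lost peaks those lists held 35.9% and 34.2%.

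Genes of the repair and signalling systems that AsiDNA engages had a peak at their start in both lists. Of genes with a known start, 12 of 13 end joining genes, 16 of 16 genes of PARP and single-strand break repair, 16 of 17 homologous recombination genes, 17 of 18 genes of damage signalling and 19 of 19 p53 targets had a peak within 1000 bp of the start in both lists, against 10218 of all 15811 known starts. None of these starts had a peak in 1 of the lists only, as 1.83% of all starts had with AsiDNA and 1.01% with vehicle. At 1 homologous recombination start a gained peak lay within 1000 bp beside another AsiDNA peak.

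Of 22 genes of homologous recombination 14 held gained and 6 held lost peaks, 11 of them gained peaks only and 3 lost peaks only. Over all protein-coding genes 44.4% held gained and 31.3% lost peaks. The genes of homologous recombination were longer, with a median of 81.7 kb against 24.2 kb for all. The part of length in these counts was not tested. RAD52, a mediator of strand annealing, had 4 gained and 0 lost, and 3 and 0 each were found at RAD50, of the MRN complex that senses ends, and at RBBP8, which starts end resection. The gained peaks near EXO1 (fold 6.54), a resection nuclease, and BLM (6.13), a helicase, were the strongest gained peaks of that list. BLM had 1 gained and 2 lost peaks.

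In their pooled shares of peaks, end joining and PARP genes lay close to all peaks. Of 18 end joining genes 13 held gained and 7 held lost peaks, against 44.4% and 31.3% of all protein-coding genes. Their median length was 74.3 kb, against 24.2 kb for all genes, and the part of length was not tested. Of the peaks of end joining genes 15.2% were gained (9.70 to 23.0) and 12.0% lost (7.17 to 19.5), against 17.6% and 12.1% of all peaks. XRCC6, the Ku70 subunit that binds broken ends, had 3 gained and 0 lost, and PRKDC, the catalytic subunit of DNA-dependent protein kinase, 2 and 0, the strongest with a fold of 3.73. XRCC5, the Ku80 subunit, had 1 gained and 2 lost and XRCC4, the ligase scaffold, 2 and 3. LIG4, the ligase itself, lost a peak with a fold of 6.15 and gained another with 3.04. Of 18 PARP and single-strand break genes, with a median length of 29.4 kb, 8 held gained and 5 lost peaks. Of their peaks 16.7% were gained and 12.0% lost. PARG, which removes poly(ADP-ribose), held 5 gained and 1 lost, and POLB, the gap-filling polymerase, 2 and 0. APLF, a histone chaperone of end joining that belongs to both gene lists, lost 4 and gained 1.

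Damage signalling, p53 targets, cytosolic DNA sensing and interferon genes had lower pooled shares of either kind than all peaks. Gained and lost shares were 12.2% and 7.95% for 20 genes of damage signalling, 13.0% and 4.63% for 24 p53 targets, 8.75% and 6.33% for 18 genes of cytosolic nucleic acid sensing and 11.4% and 4.62% for 24 interferon-induced genes. Of these 8 intervals, only those of the lost share of p53 targets (1.99 to 10.4) and the gained share of the sensing genes (4.30 to 17.0) lay below the share of all peaks. Those genes are short, with median lengths of 23.2 and 26.3 kb. Both intervals included the share of peaks inside genes of 10 to 50 kb, 10.1% lost and 15.4% gained. The shares of the gene lists also count peaks within 10 kb on either side. ATM, the kinase activated by breaks, gained a peak with a fold of 6.77, as did CHEK2, its target kinase, with 6.68. The p53 inhibitor MDM4 lost 2 and gained 0, and its partner MDM2 gained 1 and lost 0. At interferon-induced genes gained peaks were weak, with folds up to 3.80 (IFI44L), and no member held both kinds. Of 18 interferon-induced genes with a known start, 3 had a gained peak within 1000 bp of it and 0 a lost one. Over all known starts 3.57% and 2.27% did. None of these 18 starts had a peak in the AsiDNA list only. TLR9, an endosomal DNA receptor, had a start peak in the vehicle list only, with a fold of 2.43. STING1, the adaptor of cytosolic DNA sensing, lost a peak with a fold of 3.45.

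Common fragile site genes, which are long and prone to breakage under replication stress, held gained peaks in 19 and lost peaks in 18 of 24 members. Over all protein-coding genes 44.4% and 31.3% did. The median length was 1529 kb for fragile site genes and 24.2 kb for all, and the part of length in these counts was not tested. Of the peaks of fragile site genes 21.5% were gained (18.1 to 25.3), above the share of all peaks. That interval included the 18.8% of peaks inside genes over 500 kb. The lost share of 12.1% (9.40 to 15.5) was near that of all peaks. WWOX held 13 gained and 5 lost peaks, DAB1 11 and 4, CNTNAP2 10 and 4 and IMMP2L 10 and 0, while LRP1B held 5 and 7 and NAALADL2 0 and 2. Since IMMP2L was named for its surplus, its 10 peaks add to the count of the list as a selected value. Housekeeping genes held gained peaks in 2 and lost peaks in 2 of 14, against 44.4% and 31.3% of all genes. Their median length was 13.6 kb, against 24.2 kb for all genes, and the part of length was not tested. Their pooled shares were 5.56% gained (1.91 to 15.1) and 5.45% lost (1.87 to 14.9), and 10 of 10 known starts were open in both lists.

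Peaks gained or lost with AsiDNA were then looked up in the lists with belinostat, where AsiDNA was again present or absent. Of 24339 gained peaks, 6885 overlapped a peak in both the belinostat and combination lists, 2343 in the combination list only, 2650 in the belinostat list only and 12461 (51.2%) in neither. Of 15815 lost peaks, 3964 were in both, 1437 in the combination list only, 1713 in the belinostat list only and 8701 (55.0%) in neither. Among gained peaks in 1 only of those lists, 46.9% (45.5 to 48.3) were in the combination list, fewer than among AsiDNA peaks shared with vehicle (53.8%, 52.8 to 54.8). In all, 37.9% of gained peaks were found in the combination list and 39.2% in the belinostat list, so the presence of AsiDNA did not go with a larger share. With lists of equal length the combination share of gained peaks in 1 only of the belinostat-treated lists was 51.7%, on the other side of 50%.

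The share in the combination list rose with strength among gained and shared peaks alike. Among gained peaks above percentile 50, 166 were in the combination list only and 117 in the belinostat list only, a share of 58.7% (52.8 to 64.2), against 61.6% (59.7 to 63.4) of AsiDNA peaks shared with vehicle. Above percentile 70 the counts were 14 and 3 (59.0 to 93.8% in the combination list), against 569 and 272 (67.7%) for shared AsiDNA peaks and 2 and 2 for lost peaks. Among lost peaks 45.6% (43.9 to 47.4) were in the combination list, against 54.0% of vehicle peaks shared with AsiDNA. Above percentile 50 the counts were 48 and 47, a share of 50.5% (40.6 to 60.4) against 61.9% (59.8 to 64.0). Lost peaks had a lower share in the combination list than shared peaks in each class, with overlapping intervals above percentile 50.

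**Figure D5:**
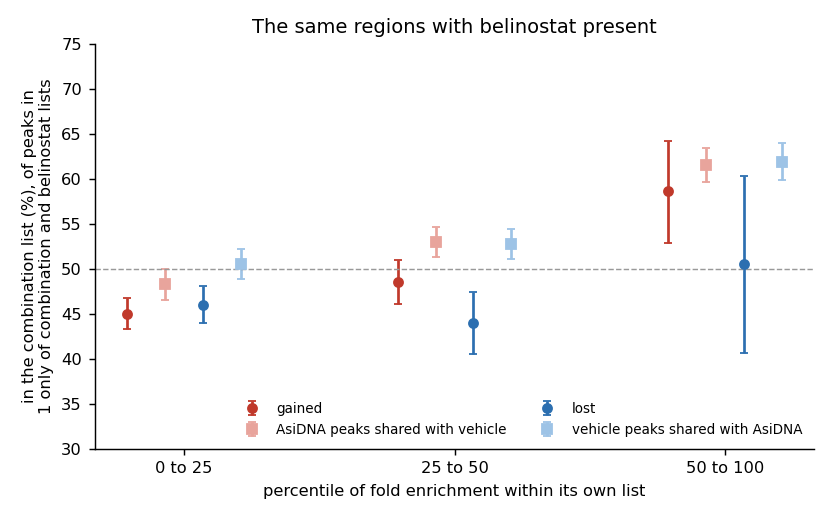
Of the peaks found in 1 only of the combination and belinostat lists, the share found in the combination list (vertical axis, %) for gained, lost and shared peaks by percentile within their own list (horizontal axis); bars are Wilson 95% intervals and the dashed line is 50%. Gained and lost peaks lie below the shared peaks of the same list in all 3 classes, but the intervals overlap above percentile 50 and, for gained peaks, below percentile 25.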

How the data were processed

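NicE-seq peak lists of 16 U87 libraries, 4 per treatment group, were used, 1 list per group. The submitters' processing notes name hg38 and the tools MACS2, Bowtie2, deepTools, Picard, SAMtools and Trim Galore 0.5.0. The sources used here do not give each tool's role and options, how libraries were pooled, or whether an input or blacklist was used. The authors' fold enrichment, a ratio, sets a peak against the background around it. Peaks also carry the authors' −log10 q, of at least 1.30, and a −log10 p used as a rank score in 1 alternative; neither p-value nor q-value was recomputed from these deposited scores.

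Peaks of chromosomes 1 to 22 and X were kept and compared by overlap of at least 1 bp, and percentiles of fold enrichment were taken within a list. Genes were the 19970 protein-coding genes of RefSeq GRCh38.p14, of which 15811 had a strand and start and 4159 had none. Neighbouring gene windows can share peaks. Exons and introns were not used here. Positions are 1-based.

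Named were the 10 genes with most gained, most lost and the largest surplus of each, the 5 with the highest gained or lost share among genes with at least 10 peaks, the 10 strongest unshared peaks of each kind anywhere and at starts, the 5 largest changes of width and rank in each direction among pairs at percentile 50 or more in both lists, and members of gene lists with strong unshared peaks. Other list members and the 2 runs were named after their values were seen. The pooled peak shares of the homologous recombination list are not reported here. The comparison, its members and the gene lists were chosen with earlier results of these data known.

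Depth per library is unknown, each group has 1 list and libraries were not analysed separately. On simulated lists 100% of 2127 gained and 1474 lost peaks were recovered. Alternatives varied the threshold, list length, overlap, windows and ranking. Python 3.11.15, numpy 2.4.6, pandas 2.3.3, statsmodels 0.14.6 and matplotlib 3.10.9 were used.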

Additional observations from a re-analysis of the deposited data

Results flagged for a closer look

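The width of shared peaks moved in opposite directions in the comparisons with and without belinostat. With AsiDNA, 59.7% of pairs were wider than with vehicle, while 44.7% of pairs were wider with the combination than with belinostat. The difference between these shares was not tested, since each group has 1 list.

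Peaks on chromosome Y were left out of every comparison above. The AsiDNA list held 465 of them and the vehicle list 406, with 102 gained and 43 lost.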

How the results depend on the processing

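No paired analysis was possible because each group has 1 list, and for the same reason no library could be left out. Gained peaks numbered 24339 and lost peaks 15815. With −log10 q of at least 5 in both lists 18483 were gained and 9941 lost, with that threshold for unshared peaks only 13668 and 6908, with lists of equal length 18700 and 18020, and with summits within 250 bp 28710 and 20754. Joining peaks within 150 bp changed nothing, since no 2 peaks of a list lay closer than 193 bp. The share of pairs wider with AsiDNA was 60.1% at −log10 q of 5 and 60.0% with lists of equal length. The share moving over 20 points was 13.8% at that threshold, 12.9% with lists of equal length, 23.8% among pairs ranked at 50 or more in both lists and 10.2% ranked by −log10 p. Genes with a gained peak numbered 14764 with windows of 50 kb, and with a lost peak 11437, or 3435 for lost peaks at −log10 q of 5. Members of the gene lists with gained and lost peaks numbered 174 and 122 of 214 with 50 kb, where 73.9% and 57.3% of all genes held them. Gained peaks at known starts, or at either end of genes without one, were 1.42% within 500 bp and 5.39% within 2000 bp. For lost peaks the shares were 1.18% and 5.06%. Of gained peaks in 1 only of the combination and belinostat lists, 46.9% were in the combination list. That share was 50.4% (48.8 to 52.1) at −log10 q of 5 and 51.7% with lists of equal length. For lost peaks it went from 45.6% to 50.0% with lists of equal length. The surplus in THSD4 turned to −2 at −log10 q of 5 for unshared peaks, and those of THSD4 and AHRR were 0 at −log10 q of 5 in both lists. The other named surpluses kept their direction under the settings tried, though some shrank. With −log10 q of at least 5 for unshared peaks only, gained minus lost went from −7 to −2 in PHACTR3 and from −8 to −1 in TTC34. It went from −6 to −1 in GPC5 and from −9 to −3 in KMT2C, and stayed at −8 in SETBP1 and −7 in RORA. Apart from the requirement of a gap over 500 bp, under which 34 did, all 40 named unshared peaks stayed unshared under the settings tried. The causes were not tested. With unknown depth, a peak missing from a list is a peak below its threshold there, not closed chromatin.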
